A study of Homo sapiens with 8 samples.

Results

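Matricellular and secreted matrix glycoproteins were followed in A375P, an established human melanoma cell line, through 10 listed genes: OLFML3, TGFBI, THBS1, THBS2, SPARC, FN1, TNC, POSTN, SPP1 and FBLN1. The array's probe table assigned 26 of the 22277 probe sets to these genes alone, and all 26 were measured. OLFML3 and TGFBI were put in the group because they were among the large rises with PGC1a hairpins, so for these 10 genes differences between PGC1a and control hairpins are given as a description, with no p-value. The contrasts that did not serve this choice, shGFP against shScr and hairpin 65 against hairpin 66, were tested.

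Gene expression was read on 8 one-colour arrays, 2 for each of 4 lentiviral short hairpin RNAs in A375P cells. PGC1a shRNA 65 and PGC1a shRNA 66 target PGC1a, the coactivator of mitochondrial biogenesis encoded by PPARGC1A, and Control shGFP and Control shScr are the controls. All 4 stable lines, controls included, carried lentivirus, went through 48 h of puromycin selection and were harvested 48 h later. No untransduced cells were analysed here. The labels leave unsaid if both arrays of one hairpin had cultures of their own, so the spread between these arrays may be technical. In the fits by hairpin the p-values reflect only that spread. In the comparison of the arms the spread also holds differences between the hairpins of an arm. All fits of single arrays and the permutation tests count the 2 arrays of a hairpin as separate units.

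Matrix glycoproteins are secreted proteins that sit between cells and the collagen scaffold. Fibronectin is a structural member that integrins on the cell surface pull into fibrils, while matricellular proteins such as thrombospondins, SPARC, tenascin C, periostin and osteopontin add little mechanical strength and instead tune adhesion, growth factor access and migration. In melanoma, several of them are made by the tumour cells themselves, and fibronectin, SPARC and tenascin C are commonly read as marks of an invasive state.

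PPARGC1A was 556 ± 11.7 (SD, n = 4) in control arrays and 125 ± 13.9 (SD, n = 4) with PGC1a hairpins, 22.3% of control (exact two-sided permutation p = 0.0286, the smallest that 4 against 4 arrays allow). Precision is limited by the number of arrays, whose median signals were 137 to 142. The 3′ minus 5′ log2 difference of the ACTB control probe sets was 2.19 ± 0.18 (SD, n = 4) in control and 2.53 ± 0.11 (SD, n = 4) in PGC1a hairpin arrays, with no overlap (exact two-sided permutation p = 0.0286). That of the GAPDH control probe sets was 0.168 ± 0.026 (SD, n = 4) in control and 0.176 ± 0.021 (SD, n = 4) in PGC1a hairpin arrays (exact two-sided permutation p = 0.571). Of 8 melanocyte markers, 7 were measured; MLANA and TYRP1 lay among the dimmest 40% of probe sets (mean log2 signal under 6.19, a signal of 73.1), while MITF, SOX10, PMEL, TYR and S100B did not. Of the 7, MITF, PMEL, TYRP1 and S100B fell and 0 rose, and the summed signal of the 7 was 18727 to 20235 in control and 14730.3 to 15958 in PGC1a hairpin arrays. Of 10 fibroblast markers, the cell type best known for making these glycoproteins, COL1A2, COL3A1, DCN, PDGFRA and LOX were among the dimmest, PDGFRB was the 1 that passed the test (higher), and the sum overlapped between the arms, 1372 to 2177 in control and 1806 to 1928 with PGC1a hairpins. Of the endothelial markers 5 of 5 were among the dimmest, yet KDR was called higher and the sum did not overlap, 139 to 160.1 in control and 165 to 183 with PGC1a hairpins. Of the epithelial markers 5 of 7 were among the dimmest, KRT18 was called higher (2619 to 3322) and the sum again did not overlap, 2493 to 3152 and 3360.5 to 3784. Of the 4 measured blood markers 3 were among the dimmest, 0 were called and the sums overlapped, 186 to 206 and 186 to 202. The part of these differences in the results was not tested, beyond a fit with the ACTB difference as a covariate. The ACTB difference did not overlap between the arms, so that fit can hardly separate it from the arms. No conclusion is drawn from a call that was lost there.

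The sequences just upstream of the start site are shown for the 3 genes with the largest differences between the arms, OLFML3, TGFBI and THBS1, and for the 2 that held a match to the TATA box searched, THBS2 and POSTN. Each is the last 100 bases before RefSeq's gene start, with motif matches in capitals.
OLFML3 (GRCh38.p14, chr1:113979374-113979473, plus strand): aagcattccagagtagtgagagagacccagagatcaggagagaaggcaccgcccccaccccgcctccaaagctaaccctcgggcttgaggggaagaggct
TGFBI (GRCh38.p14, chr5:136028888-136028987, plus strand): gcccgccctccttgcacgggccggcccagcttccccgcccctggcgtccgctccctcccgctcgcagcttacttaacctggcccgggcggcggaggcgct
THBS1 (GRCh38.p14, chr15:39580979-39581078, plus strand): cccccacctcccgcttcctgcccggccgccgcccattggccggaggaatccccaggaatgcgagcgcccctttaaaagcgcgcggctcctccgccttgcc
THBS2 (GRCh38.p14, chr6:169253847-169253946, minus strand): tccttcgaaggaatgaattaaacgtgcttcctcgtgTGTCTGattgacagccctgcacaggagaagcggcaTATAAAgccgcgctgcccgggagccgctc
POSTN (GRCh38.p14, chr13:37598769-37598868, minus strand): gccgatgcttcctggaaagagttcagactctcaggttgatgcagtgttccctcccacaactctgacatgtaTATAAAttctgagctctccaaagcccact

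In windows from 250 bases before to 50 after the start, 3 motifs were searched on both strands: TGANTCA, bound by AP-1 (7.71% of 35116 RefSeq windows of 300 bases), CAGACA, which holds part of a SMAD element (16.9%), and TATAAA, the TATA box (11.5%). All 10 genes had a window. AP-1 matched in 1 of 10 (POSTN), CAGACA in 3 of 10 (THBS2, TNC and SPP1) and TATAAA in 2 of 10 (THBS2 and POSTN, in both with the first base 29 before the start), with no overlap between matches of different motifs. POSTN also held a TATAAA match on the opposite strand (TTTATA), with its first base 182 before the start. The windows of OLFML3, TGFBI and THBS1 held none of these letters, and neither did those of SPARC, FN1 and FBLN1. The GC content of the 100 upstream bases ran from 48% in POSTN to 80% in FBLN1, with 60% in OLFML3, 77% in TGFBI and 72% in THBS1.

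OLFML3, a secreted olfactomedin-domain glycoprotein, had the largest difference of the group. Its signal (Entrez gene 56944, probe set 218162_at) was 93.7 and 85.1 with shGFP, 176 and 134 with shScr, 822 and 841 with hairpin 65 and 1012 and 894 with hairpin 66. All 4 PGC1a hairpin arrays lay above all 4 control arrays, and the lowest of them was 2.23 log2 units above the highest control. The means were 122 ± 41.7 and 892 ± 85.6 (SD, n = 4 in each arm). The ratio was 7.59-fold (log2 difference 2.92, SE 0.20), the 5th largest positive difference of 22215 probe sets tested. In bulk RNA, a change in the number of cells that express a gene and a change in RNA per cell cannot be told apart. The controls also differed from each other: OLFML3 was 1.72-fold lower in shGFP than in shScr (log2 difference -0.78, SE 0.13, limma adjusted p = 0.0160). Against shGFP alone the PGC1a hairpins were higher by 3.32 log2 units and against shScr alone by 2.53.

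TGFBI, a secreted protein named for its induction by TGF-beta that binds collagens and integrins, was the steadiest. Its signal (Entrez gene 7045, probe set 201506_at) was 2626 and 2885 with shGFP, 2894 and 2962 with shScr, 6394 and 6506 with hairpin 65 and 6503 and 6995 with hairpin 66. The arms did not overlap, and the gap between them was 1.11 log2 units. The means were 2842 ± 148 and 6599.6 ± 269 (SD, n = 4 in each arm), 2.32-fold (log2 difference 1.22, SE 0.06). The control hairpins were close, with a log2 difference of -0.09 (SE 0.07, limma adjusted p = 0.570), so that the difference was 1.26 against shGFP and 1.17 against shScr.

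THBS1, thrombospondin 1, a trimeric glycoprotein that binds CD36 and CD47 and can activate latent TGF-beta, was higher in 3 of its 5 probe sets. In the brightest, 201110_s_at (Entrez gene 7057), the signal was 1848 and 1433 with shGFP, 1438 and 1343 with shScr, 2522 and 3160 with hairpin 65 and 3110 and 2397 with hairpin 66. In 201109_s_at the signals were 846 and 883, 752 and 811, 1611 and 1670, and 1641 and 1533 in the same order. In both, every PGC1a hairpin array was above every control array, at 1.85-fold (log2 difference 0.89, SE 0.12) and 1.96-fold (0.97, SE 0.06). The third, 201108_s_at, was 1.33-fold higher, from 296 ± 22.1 to 392 ± 18.4 (SD, n = 4 in each arm), also without overlap. The other two, 215775_at and 201107_s_at, had signals between 22.6 and 42.2 on all 8 arrays, among the dimmest 40%, overlapped between the arms, and differed by 0.14 and 0.16 log2 units. Between the control hairpins none of the 5 passed the test, with limma adjusted p from 0.225 to 0.749.

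THBS2, the other trimeric thrombospondin, had a low signal, above the dimmest 40%. Its signal (203083_at) was 63.5 and 94.3 with shGFP, 95.3 and 94.1 with shScr, 107 and 116 with hairpin 65 and 115 and 100.3 with hairpin 66. The arms did not overlap, by 0.07 log2 units, and replicate 1 of shGFP stood well below the other 3 control arrays. The log2 difference was 0.36 (SE 0.13), which was not among the calls, and with the ACTB difference as a covariate it was -0.07.

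**Figure D1:**
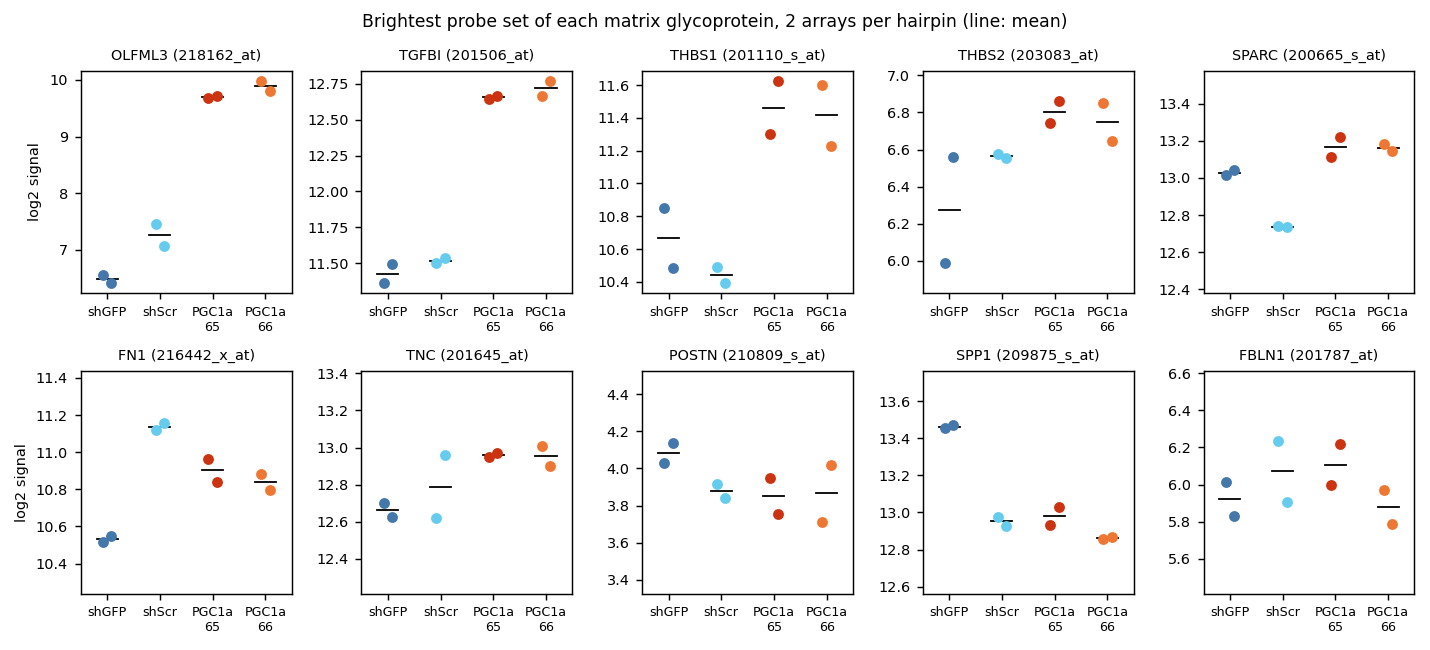
Log2 signal (vertical axis) of the brightest probe set of each of the 10 matrix glycoproteins on the 8 arrays, grouped by hairpin (horizontal axis), with the mean of 2 arrays as a line. Each panel has its own scale, and levels are not comparable between genes. The 4 PGC1a hairpin arrays lie above the 4 control arrays for OLFML3, TGFBI, THBS1, THBS2 and SPARC, while for FN1 they lie between shGFP and shScr.

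SPARC, a collagen-binding matricellular protein also called osteonectin, was bright on every array, and its level depended on which control it was set against. With 200665_s_at (Entrez gene 6678) the signal was 8294 and 8425 with shGFP, 6836 and 6814 with shScr, 8867 and 9552 with hairpin 65 and 9288 and 9043 with hairpin 66. The PGC1a hairpin arrays lay above all controls, but the log2 difference was 0.14 against shGFP and 0.43 against shScr. With 212667_at the signal was 1685 and 1612 with shGFP, 951 and 917 with shScr, 1648 and 1667 with hairpin 65 and 1534 and 1528 with hairpin 66, so shGFP and both PGC1a hairpins shared a range and shScr lay apart, below them. Between the controls, SPARC was higher in shGFP by 0.29 log2 units with the first probe set (SE 0.07, limma adjusted p = 0.0457) and by 0.82 with the second (SE 0.06, limma adjusted p = 0.000685).

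FN1, fibronectin, lay between the controls. In its brightest probe set, 216442_x_at (Entrez gene 2335), the signal was 1468 and 1500.04 with shGFP, 2226 and 2283 with shScr, 1997 and 1834 with hairpin 65 and 1891 and 1782 with hairpin 66. All 4 PGC1a hairpin arrays were above both shGFP arrays and below both shScr arrays. The log2 difference was 0.04 (SE 0.15) against all controls, 0.34 against shGFP alone and -0.27 against shScr alone. The same order of hairpins, shGFP lowest and shScr highest, held in 210495_x_at, 211719_x_at and 212464_s_at. These 4 probe sets were lower in shGFP than in shScr by 0.55 to 0.60 log2 units, from 1.46-fold to 1.52-fold, with limma adjusted p from 0.00350 to 0.00809. They report on overlapping parts of one transcript pool and are not independent of each other. The remaining FN1 probe sets, 214701_s_at and 214702_at, were among the dimmest 40% and differed by 0.003 and -0.14 between the controls.

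SPP1, osteopontin, a phosphorylated glycoprotein that binds integrins and CD44, was one of the brightest. Its signal (209875_s_at, Entrez gene 6696) was 11233 and 11345 with shGFP, 8065 and 7787 with shScr, 7825 and 8371 with hairpin 65 and 7406 and 7486 with hairpin 66. The 2 shGFP arrays were apart from the other 6, which overlapped. SPP1 was 1.42-fold higher in shGFP than in shScr (log2 difference 0.51, SE 0.06, limma adjusted p = 0.00527). The PGC1a hairpins differed from shGFP by -0.54 and from shScr by -0.03 log2 units.

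TNC, tenascin C, a large hexameric glycoprotein that weakens adhesion to fibronectin, moved little. With 201645_at the signal was 6666 and 6328 with shGFP, 6285 and 7957 with shScr, 7895 and 8029.8 with hairpin 65 and 8229.8 and 7651 with hairpin 66. The second shScr array lay inside the range of the PGC1a hairpin arrays and the other 3 control arrays below it. The log2 difference was 0.23 (SE 0.08), and that of the dimmer 216005_at was 0.33 (SE 0.10), with 352 ± 49.5 in control and 441 ± 34.2 with PGC1a hairpins (SD, n = 4 in each arm). Neither probe set was called, and both were called with a trend and robust variance or without the dimmest 40% of probe sets.

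POSTN, periostin, and FBLN1, fibulin 1, had no probe set outside the dimmest 40%. The 2 POSTN probe sets had signals between 11.9 and 17.6 on all arrays and the 5 of FBLN1 between 15.6 and 75.3. Their log2 differences ran from -0.12 to -0.004, and the arms overlapped in all 7. Without detection calls for these arrays, it is unknown if such low signals are background.

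**Figure D2:**
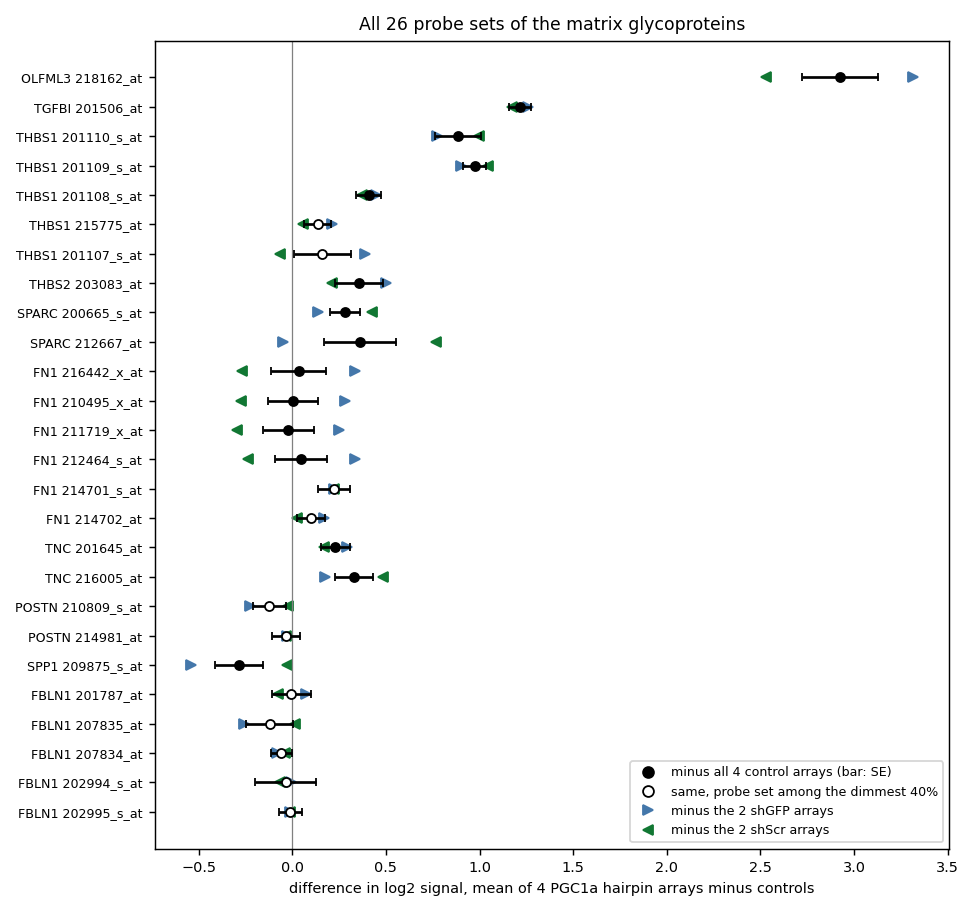
Difference in log2 signal (horizontal axis) between the 4 PGC1a hairpin arrays and the control arrays for all 26 probe sets (vertical axis), as circles with SE bars against all 4 control arrays (open: among the dimmest 40%) and as triangles against each control hairpin alone. All marks lie on the right of 0 for OLFML3, TGFBI, the 3 brighter THBS1 probe sets, THBS2, SPARC 200665_s_at and the TNC probe sets. The same holds for the dim THBS1 215775_at, FN1 214701_s_at and FN1 214702_at. For the 4 brighter FN1 probe sets the triangles lie on opposite sides of 0.

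Counted over the group, 6 of 26 probe sets were called higher with PGC1a hairpins and 0 lower (limma adjusted p under 0.05), beside 18.0% of all 22215 probe sets called in this contrast, 9.49% higher and 8.46% lower. Outside the dimmest 40% the count was 6 of 15, beside 26.9% of all such probe sets in either direction. Because this contrast chose the group, nothing is read from these counts. The calls were OLFML3, TGFBI, 3 of THBS1 and 1 of SPARC (200665_s_at). The SPARC call was absent without either shScr array or any 1 of the PGC1a hairpin arrays, and also with the replicate block or the ACTB covariate. With that covariate 3 calls were left: OLFML3 (log2 difference 2.69), TGFBI (1.18) and THBS1 201109_s_at (0.96). The arms did not overlap in 7 of 26 probe sets, all higher (12.2% of all probe sets were higher without overlap). The median log2 difference of the 26 was 0.12, beside -0.005 over all probe sets.

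The choice of control changed which genes were called. With shGFP left out, 12 probe sets were called against shScr alone (13.9% of all probe sets were called), with both SPARC probe sets and TNC 216005_at higher and the 4 brighter FN1 probe sets lower. With shScr left out, 13 were called against shGFP alone (20.6% of all probe sets), with the same 4 FN1 probe sets higher, SPP1 lower and no SPARC call. THBS2 203083_at, TNC 201645_at and the dim THBS1 201107_s_at were also called higher against shGFP alone. OLFML3, TGFBI and the 3 brighter THBS1 probe sets were called higher in both fits. Both fits use the same PGC1a hairpin arrays, and OLFML3 and TGFBI were chosen as large rises, so this is a description.

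Each PGC1a hairpin was also set against the mean of both controls, again as a description. The SE of this fit holds only the spread between the arrays of a hairpin, so a gap between the controls does not enter it. Hairpin 65 had 7 probe sets called higher and 1 lower, SPP1 (18.2% of all probe sets were called, 10.1% higher and 8.11% lower), and hairpin 66 had 8 higher and 1 lower, also SPP1 (17.2%, with 8.71% higher and 8.46% lower). For OLFML3 the log2 differences were 2.83 with hairpin 65 and 3.02 with hairpin 66, for TGFBI 1.18 and 1.25, and for THBS1 201109_s_at 0.998 and 0.95. SPP1 was called although the PGC1a hairpins together differed from shScr alone by only -0.03 log2 units. SPARC 212667_at was called higher with both hairpins, though together they differed from shGFP alone by -0.05. With the ACTB covariate the calls of SPP1, THBS1 201110_s_at, THBS1 201108_s_at and SPARC 200665_s_at were lost for both hairpins. Those of SPARC 212667_at and TNC 216005_at were lost for hairpin 66, and the dim FBLN1 202994_s_at was called lower with hairpin 66.

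The test between the PGC1a hairpins, which did not serve the choice of genes, called 0 of 26 probe sets with limma (0% of all probe sets were called). At an unadjusted p under 0.05 it also had 0 of 26, beside 1518 of all 22215 (6.83%), and 0 of 26 with a trend and robust variance. The lowest adjusted p among the 26 was 0.782. OLFML3 differed by -0.19 log2 units (SE 0.13), hairpin 65 being the lower, TGFBI by -0.06 (SE 0.07), THBS1 201110_s_at by 0.05 (SE 0.17) and SPP1 by 0.12 (SE 0.06). These tests do not show that the hairpins act alike.

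The test between the control hairpins called 8 of 26 probe sets, 3 higher and 5 lower in shGFP, which are 30.8% of the group beside 5.56% of all probe sets (3.12% higher and 2.44% lower). By the brightest probe set of each gene, 4 of 10 genes were called, SPARC and SPP1 higher and OLFML3 and FN1 lower, beside 6.60% of all 11963 genes (3.73% higher and 2.87% lower). All 8 calls lay among the 15 probe sets outside the dimmest 40%, where 8.22% of probe sets were called. Leaving out 1 control array leaves its hairpin with 1 array, whose spread is then taken from the other hairpins. The calls of SPARC 212667_at and of FN1 216442_x_at, 210495_x_at and 212464_s_at held in all 8 fits with 1 array left out, of a control or a PGC1a hairpin. The OLFML3 call was lost without shGFP replicate 1 (limma adjusted p = 0.0658), shGFP replicate 2 (0.108) or shScr replicate 1 (0.0537), and over 16 alternatives this p ran from 0.000143 to 0.108. The SPP1 call was lost without shScr replicate 2 (limma adjusted p = 0.0523, the highest of 15 alternatives, the lowest being 4.27e-07) and that of FN1 211719_x_at without shGFP replicate 2 or either shScr array (at most 0.0676, from 1.56e-05 over 14). The SPARC 200665_s_at call held in 7 of 15 alternatives (limma adjusted p from 0.000154 to 0.206); it was lost without any 1 control array or either array of hairpin 66, with the replicate block and with the ACTB covariate.

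**Figure D3:**
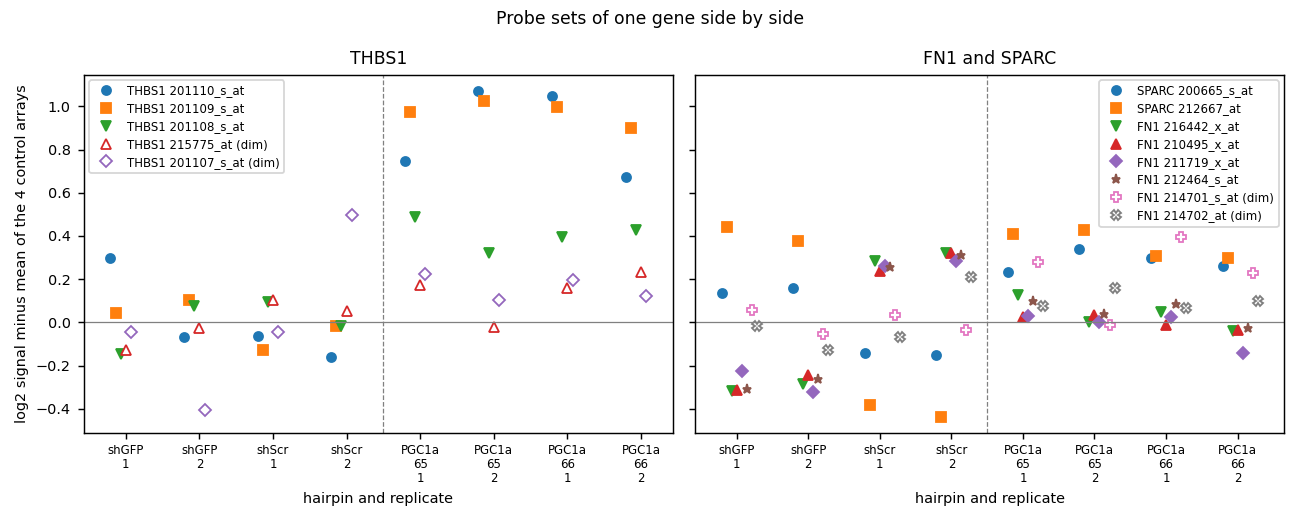
Log2 signal of each array minus the mean of the 4 control arrays (vertical axis), for the probe sets of THBS1 (left) and of FN1 and SPARC (right), by hairpin and replicate (horizontal axis). Open symbols are probe sets among the dimmest 40%, and the dashed line parts control from PGC1a hairpin arrays. The 3 brighter THBS1 probe sets are raised on all 4 PGC1a hairpin arrays, while the 4 brighter FN1 probe sets are low with shGFP and high with shScr, and SPARC the reverse.

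Levels that ran most like those of OLFML3 over the 8 arrays, by Pearson correlation of log2 signal among genes outside the group, were those of TSC22D1 (r = 0.997), HEG1 (r = 0.997) and NPAS2 (r = 0.996). For TGFBI they were those of MGAT5, a glycan-branching enzyme (r = 0.999), the transcription factor gene CREB3L2 (r = 0.998) and PLAUR, the urokinase receptor (r = 0.998). These points share 4 hairpins, and any gene that differs between the arms to a like degree ranks high. PLAUR signals were 367 ± 32.2 in control and 1211 ± 45.2 in PGC1a hairpin arrays (SD, n = 4).

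Close relatives of the 10 genes, 32 in all from the list of other matrix glycoproteins, were measured for 26, of which 3 were called higher, 2 lower and 21 in neither direction by the brightest probe set (10.8% of all genes were called higher and 9.80% lower). Among thrombospondins, THBS3 (log2 difference 0.27, SE 0.09) and the dim THBS4 and COMP were not called. Of the SPARC family, FSTL1, follistatin-like 1, rose (363 to 537, log2 difference 0.57, limma adjusted p = 0.000124), and of the fibulins EFEMP2, fibulin 4, which elastic fibres need, rose (123 to 180, 0.55, limma adjusted p = 0.000150). Of the olfactomedins, OLFML2A fell (log2 difference -0.53, limma adjusted p = 0.0191), a call lost without shGFP replicate 1, hairpin 65 replicate 2 or hairpin 66 replicate 2 (limma adjusted p = 0.0508 to 0.244 over the alternatives that ended it). Of the CCN matricellular family, CCN3 fell (2924 to 1459, log2 difference -0.98, limma adjusted p = 0.000630) and the dim CCN6 rose (0.98, limma adjusted p = 0.00439), and the controls differed in both, CCN3 being higher and CCN6 lower in shGFP than in shScr. The CCN6 call was lost with hairpin 66 left out (limma adjusted p = 0.0650). CCN2, a known TGF-beta target, was at 411 in control and 326 with PGC1a hairpins (log2 difference -0.29, limma adjusted p = 0.280), and was 0.69 higher in shGFP than in shScr.

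In the whole list of 63 other matrix glycoproteins, 54 were measured, 12 rose and 4 fell (10.8% and 9.80% of all genes), with a median log2 difference of -0.007. The largest rises were MFAP2, a microfibril protein (123 to 280, limma adjusted p = 0.000111), CCN6 and EMILIN1, an elastic fibre glycoprotein (568 to 967); with OLFML2A and CCN3, LGALS3BP fell (log2 difference -0.35), a call lost with shGFP or hairpin 66 left out. Like the 10 genes themselves, this list was drawn up with earlier results of these data known. The same holds for the lists of receptors, enzymes, TGF-beta pathway genes and textbook targets below, so their counts are a description. With the ACTB difference, which was higher on PGC1a hairpin arrays, as a covariate the calls of CCN3, CCN6, OLFML2A and LGALS3BP were lost. Their log2 differences in that fit were -0.95, 0.84, -0.60 and -0.34, beside -0.98, 0.98, -0.53 and -0.35 without the covariate.

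Cell-surface receptors of these glycoproteins were higher more often than lower, 11 and 2 of 23 measured genes (10.8% and 9.80% of all genes), with a median log2 difference of 0.28. ITGA5, which pairs with ITGB1 as the main fibronectin receptor, rose from 378 ± 38.8 to 994 ± 12.6 (SD, n = 4 in each arm). ITGB5, which pairs with ITGAV, rose from 1668 to 3962, and ITGA3, a laminin receptor subunit that also binds thrombospondin, from 178.5 to 380, though ITGA3 was 0.58 lower in shGFP than in shScr. The syndecan SDC3 (log2 difference -0.37) and the dim integrin subunit ITGA8 (-0.30) fell. The SDC3 call was lost in 5 of 14 alternatives (limma adjusted p from 0.000857 to 0.424 over the 14). Among them were replicate 1 of hairpin 66 (0.0505), hairpin 65 (0.12), hairpin 66 (0.103) or shGFP (0.0706) left out. SDC3 was 0.325 higher in shGFP than in shScr, and its log2 difference was -0.21 against shScr alone. With the ACTB covariate the calls of ITGA3, SDC3 and ITGA8 were lost, at log2 differences of 1.14, -0.29 and -0.25. The ITGA8 call was also lost with hairpin 65 left out.

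Of 20 measured enzymes that process or cross-link matrix glycoproteins, 4 rose and 0 fell (10.8% and 9.80% of all genes), with a median of 0.07. LOXL2, a lysyl oxidase of collagen and elastin, rose from 993 to 1721, ADAMTS1, a protease, from 661 to 995 and PLAT, tissue plasminogen activator, from 1968 to 2922. The other LOXL2 probe sets had log2 differences as low as 0.03. The ADAMTS1 call was lost with the ACTB covariate, at a log2 difference of 0.53 beside 0.59 without it.

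TGF-beta is known to induce TGFBI, THBS1, FN1 and TNC, and 33 genes of its pathway were measured: 17 rose and 1 fell (10.8% and 9.80% of all genes), with a median log2 difference of 0.27. INHBA, a subunit of activin A, rose from 207 ± 52.3 to 1761 ± 102 (SD, n = 4 in each arm), the activin antagonist FST from 90.5 to 217 and SMAD3, a transcription factor activated by the receptors, from 423 to 901. Other probe sets of SMAD3 differed by as little as -0.13 log2 units and of INHBA by 0.78, and INHBA was 0.63 lower in shGFP than in shScr. The pseudoreceptor BAMBI fell (log2 difference -0.235, limma adjusted p = 0.0266), a call lost without either shScr array, either array of hairpin 65 or replicate 1 of hairpin 66 (limma adjusted p = 0.0546 to 0.0688). Among 26 measured textbook targets, 9 rose and 4 fell (10.8% and 9.80% of all genes), with a median of 0.18. PMEPA1, a feedback inhibitor, rose from 319 to 746, COL4A1, a basement membrane collagen, from 1299 to 2431 and the inhibitory SMAD7 from 152 to 232. ID2 (log2 difference -1.998) and ID3 (-1.53), inhibitors of basic helix-loop-helix factors that BMP signals raise, fell. So did the dim TAGLN, an actin-binding protein (-0.53). Its call was lost without shScr replicate 1, either array of hairpin 65 or replicate 2 of hairpin 66 (limma adjusted p = 0.0519 to 0.0661). The arms overlapped for TAGLN, which was 0.47 log2 units lower in shGFP than in shScr. Against shGFP alone its log2 difference was -0.29 and against shScr alone -0.76. With the ACTB covariate the calls of SMAD7, BAMBI and TAGLN were lost (limma adjusted p = 0.0791, 0.359 and 0.115). Their log2 differences in that fit were 0.58, -0.235 and -0.77. Over all 14 alternatives the BAMBI call was lost in 9 and the TAGLN call in 8.

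**Figure D4:**
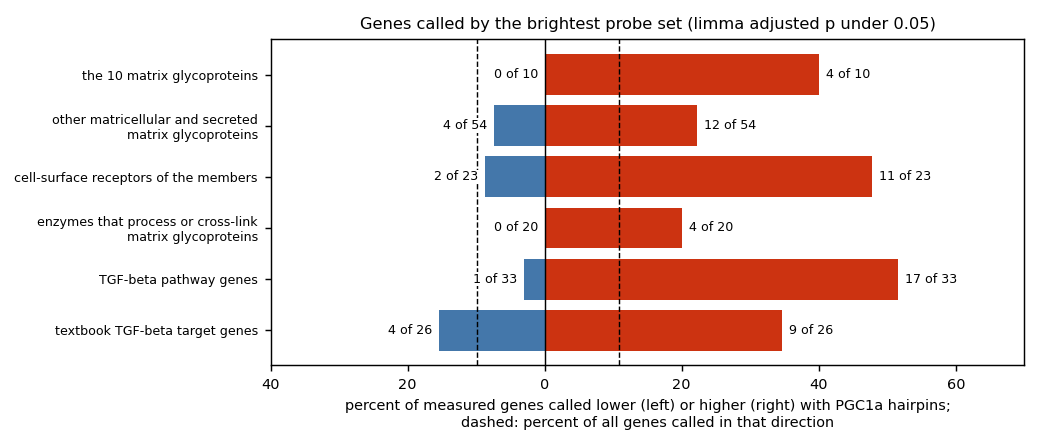
Percent of measured genes in each list called higher (bars to the right) or lower (bars to the left) with PGC1a hairpins by the brightest probe set of a gene, with counts beside the bars, against the percent of all genes called in that direction (dashed lines, 10.8% and 9.80%). The receptors have 11 of 23 and the TGF-beta pathway genes 17 of 33 higher. The 10 matrix glycoproteins were chosen on this contrast, and the other lists were drawn up with earlier results of these data known.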

How the data were processed

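The authors deposited a linear-scale intensity for each of 22277 probe sets, made with RMA (version not stated, per the submitters' processing notes). Log2 was taken before all fits. Of the probe sets, 62 were array controls and 22215 were tested singly with limma 3.58.1 in R 4.3.3, with p-values adjusted by Benjamini and Hochberg over all of them (threshold 0.05). Arms were compared in a 2-group fit with 6 residual degrees of freedom, single hairpins in a 4-group fit with 4. Probe sets with 1 gene symbol (19070) were named, and those with several (1043) or none (2164) were not. "Rose" and "fell" refer to calls, SE is the fit's, and a fold is 2 raised to the log2 difference.

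The 10 genes, the lists and the rule for named genes (all probe sets of the 10 genes, up to 3 called genes per list and direction, and the 3 genes most correlated with OLFML3 and with TGFBI) were chosen with earlier results of these data known. THBS3, CCN2, FSTL1 and EFEMP2 were named after their values were seen. Protein sequences were not used here. Promoter windows came from RefSeq, build GRCh38.p14, and figures were drawn with matplotlib 3.10.9.

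Simulated data with known changes were used to test the scripts. Alternatives were 1 probe set a gene, s_at and x_at probe sets left out, a filter on dim probe sets, quantile and cyclic loess normalization, a trend and robust variance, a replicate block, an ACTB covariate, arrays or hairpins left out, and averaged arrays.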

Additional observations from a re-analysis of the deposited data

Results flagged for a closer look

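In the 4 arrays of an arm, 3 of 52 sets of values had 1 array far from the other 3, about what chance gives (1 in 20). THBS2 (203083_at) was at 5.99 log2 units in shGFP replicate 1, while the next lowest control array was at 6.56. FN1 (211719_x_at) was at 10.56 in replicate 2 of hairpin 66, below 10.71 in the next PGC1a hairpin array. POSTN (214981_at), among the dimmest 40% of probe sets, was at 3.89 in replicate 1 of hairpin 65, above 3.60 in the next.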

How the results depend on the processing

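The 4 brighter FN1 probe sets, not called against both controls, were called lower without shGFP and higher without shScr. The 6 probe sets called between the arms were 2 without s_at and x_at probe sets (which leaves 12 of the 26), 3 with the ACTB covariate, 12 without shGFP, 13 without shScr, and 5 to 7 with 1 array left out. For hairpin 65 against controls the 8 calls became 5 with 1 probe set a gene (10 tested), 3 without s_at and x_at probe sets, 4 with the ACTB covariate and 5 to 8 with 1 array left out; for hairpin 66 the 9 became 5, 4, 4 and 5 to 10. Between the controls the 8 became 4 with 1 probe set a gene, 2 without s_at and x_at probe sets and 5 to 8 with 1 array left out, and between hairpins 65 and 66 they stayed at 0 in all alternatives run. The 91 called probe sets of the 5 other lists (76 higher and 15 lower of 280) became 60 of 150 with 1 probe set a gene, 44 of 134 without s_at and x_at probe sets, 33 with the ACTB covariate and 80 to 89 with 1 array left out. The log2 difference of PPARGC1A lay between -2.24 and -2.12 with 1 array left out.

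Replicate numbers showed no clear pairing of the arrays: the deviations of same-numbered arrays correlated from -0.10 (hairpins 65 and 66) to 0.03 over probe sets. With the replicate block, 5 probe sets were called between the arms and 7 between the controls, and with the numbers of hairpin 66 exchanged, an alternative chosen after seeing the data, 0 between hairpins 65 and 66.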

Other observations

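Between the control hairpins the other lists were also called in part. By the brightest probe set, 6 of 26 textbook TGF-beta targets were higher and 2 lower in shGFP than in shScr (3.73% of all genes were called higher and 2.87% lower). Of the receptors 3 of 23 were higher and 1 lower, of the TGF-beta pathway genes 3 of 33 higher and 4 lower, of the processing enzymes 2 of 20 higher and 1 lower, and of the other matrix glycoproteins 4 of 54 higher and 3 lower. The fibulin relatives FBLN5 (log2 difference -0.40) and EFEMP1 (-0.51) were among the lower and CCN2 (0.69) and CCN3 (0.51) among the higher; these 4 genes were named after their values were seen.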
